A study of Mus musculus with 5 samples.

Results

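Clusters 3 and 6 are 2 of the hepatocyte clusters in a table of mouse liver single cells, and most of their cells come from 1 of the 2 libraries. They were taken by the authors' cluster numbers, and together they hold 1308 of the 8662 cells in the table (15.1%). Cluster 3 has 809 cells, of which 663 carry the label WT and 146 the label DKO. Cluster 6 has 499 cells, of which 410 carry the label WT and 89 the label DKO. The authors call both clusters hepatocytes, with the subtype names HC3 Alb hi for cluster 3 and HC1 Alb hi for cluster 6.

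Both libraries are liver on the ApoE background, the first with the genotype label DKO and the second with the label WT. The labels do not spell out DKO. The series title names liver epsins, endocytic adaptor proteins encoded by Epn1 and Epn2, and the isolation protocol speaks of Liver-DKO mice. The sources used here give neither the age and strain of the mice nor a promoter that drives a deletion, and the protocol names 3 mice without saying which library they went into. Each genotype therefore has 1 library, so genotype and library cannot be told apart, and no test between them is possible. A cluster made mostly of 1 library may reflect that library rather than a kind of cell.

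Hepatocytes are the main cells of the liver and secrete most plasma proteins, among them albumin, transthyretin and the apolipoproteins. They also make bile acids, store and release glucose, and modify drugs with cytochrome P450 and conjugating enzymes. Their enzyme content depends on their place in the lobule: cells near the portal vein carry more urea cycle and gluconeogenic enzymes, and cells near the central vein carry more glutamine synthetase and cytochrome P450. Single-cell libraries count unique molecular identifiers (UMIs), tags that mark each captured RNA molecule. Levels are summed UMIs of a cluster and library as CPM, the usual scaling of counts to a common total, with a 95% exact Poisson interval. Ratios carry a 95% exact binomial interval. These intervals cover counting error only and say nothing of the spread between mice.

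The cells labelled WT made up 82.0% of cluster 3 (exact binomial interval 79.1% to 84.5%) and 82.2% of cluster 6 (78.5% to 85.4%). These were the highest shares among the 10 hepatocyte clusters, and the third was cluster 1 with 68.8%. The other hepatocyte clusters used for comparison (0, 1, 2, 4, 5, 7, 8 and 13) hold 2942 cells labelled WT and 2978 labelled DKO. The 2 libraries contribute equal numbers of cells to the whole table, 4331 each. In the authors' clustering without integration of the libraries, 389 of the 410 WT-labelled cells of cluster 6 lay in 1 cluster, and only 4 of its 89 DKO-labelled cells lay there. The WT-labelled cells of cluster 3 were mostly in another single cluster (399 of 663), which held 18 of its 146 DKO-labelled cells. The libraries shared 4 cell barcodes, of which 2 had a cell in cluster 3 or 6.

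The depth of the cells was near the middle of the hepatocyte clusters in cluster 3 and lower in cluster 6. The median cell labelled WT had 1618 UMIs and 875 detected genes in cluster 3, and 1318 UMIs and 727 genes in cluster 6. The WT-labelled cells of the 8 other hepatocyte clusters together had medians of 1566 UMIs and 836.5 genes. Among them, clusters 0, 1, 2 and 13 had medians from 1117.5 to 1375 UMIs, and cluster 4 had 2027. The median cell labelled DKO had 1340.5 UMIs in cluster 3 and 1069 UMIs in cluster 6, against 1914 in the others. Hepatocyte clusters 5, 7 and 8 were deeper, with medians of 4239 to 5845 UMIs over the 2 libraries. The mitochondrial share of UMIs had a median of 3.34% in cluster 3 and 2.34% in cluster 6 for cells labelled WT, and of 7.64% and 2.83% for cells labelled DKO. In clusters 5, 7 and 8 these medians lay between 13.3% and 16.4%. Cluster 13, the shallowest, had 14.1% and 14.4%, so a high mitochondrial share was not limited to the deep clusters.

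**Figure D1:**
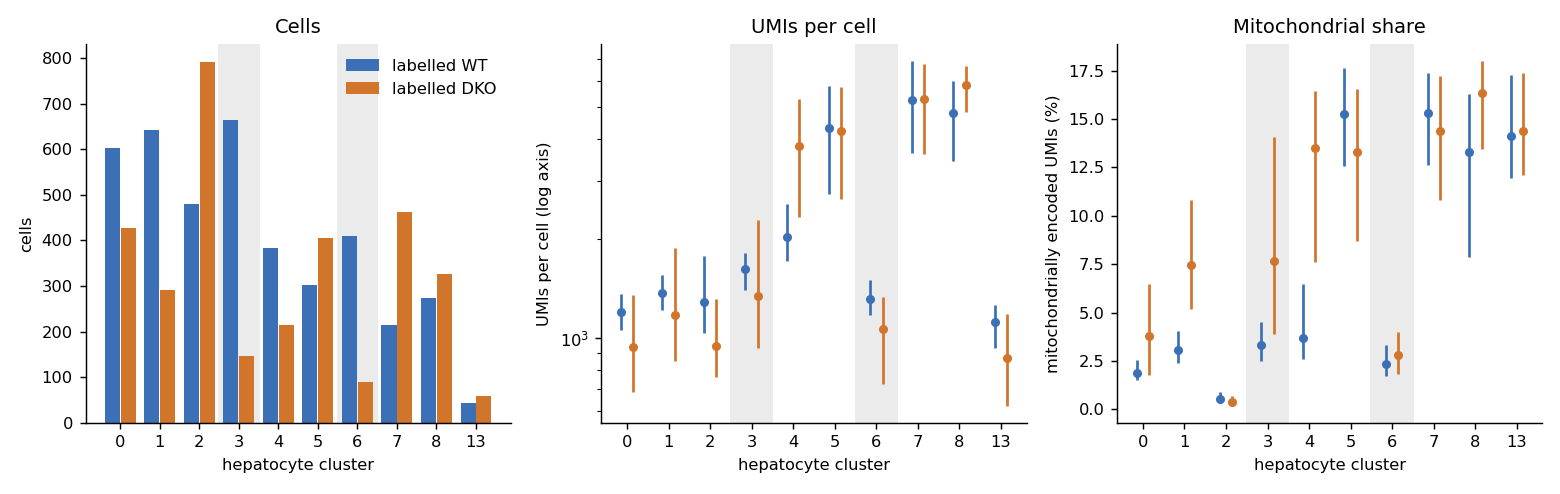
Cells, UMIs per cell and the mitochondrially encoded share of UMIs in the 10 hepatocyte clusters of the 2 libraries; bars are cell numbers, points are medians over cells and lines reach from the first to the third quartile. The shaded clusters 3 and 6 have the most uneven cell numbers (663 against 146 and 410 against 89) and median UMIs far below those of clusters 5, 7 and 8.

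The genes named by the series title did not separate the libraries. Epn1 was at 47.0 CPM (35.1 to 61.6) in the WT-labelled cells of cluster 3 and at 42.1 CPM (21.7 to 73.5) in its DKO-labelled cells. In cluster 6 it was at 60.5 CPM (42.2 to 84.2) and 87.1 CPM (39.8 to 165.3). Epn2 had 4 UMIs in WT-labelled cluster 3 and 5 in WT-labelled cluster 6, and 0 UMIs in the DKO-labelled cells of both, where the upper bounds of 12.9 and 35.7 CPM lie above the WT-labelled levels. These levels do not check the genotype labels, and the groups are called by their labels throughout. Apoe, the gene the background is named for, was between 24.2 and 38.5 CPM in the 4 groups of cells.

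The cells had hepatocyte RNA, with RNA of other cell types that differed by list. All 12 hepatocyte markers were detected in each cluster and library, with a summed level of 121872 CPM in WT-labelled cluster 3 and 131202 CPM in WT-labelled cluster 6. The WT-labelled cells of the other hepatocyte clusters had 110243 CPM. Of 12 Kupffer cell markers, 7 had a UMI in WT-labelled cluster 3 and the sum was 11.7 CPM. The 12 T or NK cell markers summed to 7.23 CPM there, and the 12 endothelial markers to 16.3 CPM. The corresponding sums in WT-labelled cluster 6 were 8.65, 12.1 and 24.2 CPM. Neutrophil markers summed to 15.4 CPM in WT-labelled cluster 3 and 24.2 CPM in WT-labelled cluster 6, against 4.09 CPM in the others. Pancreatic acinar markers were the exception in size, with 918 CPM in WT-labelled cluster 6 and UMIs in 89.5% of its cells. Erythroid markers summed to 706 CPM in DKO-labelled cluster 6 and 39.7 to 59.6 CPM in the other 3 groups of cells. Cholangiocyte markers summed to 303 and 285 CPM, from Krt8 and Krt18 almost alone, which hepatocytes also make. Hepatocyte RNA was also counted in other cells: Alb was at 25191 CPM in WT-labelled liver T cells against 49676 CPM in WT-labelled cluster 3.

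Ccdc152 and Alb are the genes given as marks of these clusters, and neither was highest there. Alb encodes albumin, the main plasma protein (GRCm38, chromosome 5, 90460897 to 90476602, plus strand). Among WT-labelled cells of the 10 hepatocyte clusters, Alb ranked 6th in cluster 3 (49676 CPM) and 5th in cluster 6 (50570 CPM). It was highest in cluster 7, at 59440 CPM. Ccdc152 encodes a coiled-coil protein and lies on the minus strand of chromosome 15, from 3280070 to 3303526. Its 3′ end overlaps that of Selenop, the gene of the selenium carrier selenoprotein P, on the plus strand from 3268547 to 3280508. Ccdc152 was at 1102 CPM (1041 to 1166) in WT-labelled cluster 3 and 1141 CPM (1056 to 1232) in WT-labelled cluster 6. It ranked 3rd and 2nd, after cluster 4 with 1216 CPM, whose interval (1144 to 1291) overlaps with those of clusters 3 and 6.

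Between the libraries Ccdc152 differed more than it did among WT-labelled clusters 3, 4 and 6. Over all 10 WT-labelled hepatocyte clusters its level ran from 272 CPM in cluster 5 to 1216 CPM in cluster 4. Cells labelled DKO had 224 CPM (173 to 286) in cluster 3, a ratio to the cells labelled WT of 0.203 (0.156 to 0.262). In cluster 6 they had 281 CPM (188 to 403), a ratio of 0.246 (0.163 to 0.356). The other hepatocyte clusters together had the ratio 0.202, so the difference was not particular to clusters 3 and 6. Selenop, on the opposite strand, was not lower: its ratio was 1.29 (1.19 to 1.40) in cluster 3 and 1.08 (0.94 to 1.23) in cluster 6. Of the UMIs assigned to either gene in cluster 3, Ccdc152 took 32.9% with the label WT and 7.17% with the label DKO. In cluster 6 it took 33.1% and 10.1%. The size of the difference varied among the other clusters, with 33.6% and 5.03% in cluster 4 and 12.3% and 4.65% in cluster 5. WT-labelled liver T cells, which should hold no hepatocyte RNA of their own, gave 19.6% and DKO-labelled T cells 6.06%. The labels do not say whether the counting used strand, so reads of Ccdc152 and Selenop cannot be told apart with certainty.

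The share of cells with a Ccdc152 UMI followed the levels. After each cell was thinned to 1000 UMIs, leaving out shallower cells, 65.1% of 653 WT-labelled cells of cluster 3 had one (61.3% to 68.7%). The share was 66.1% of 384 cells in cluster 6 and 50.6% of 2677 cells in the other hepatocyte clusters. With the label DKO, it was 20.4% of 103 cells in cluster 3, 10 of 50 cells in cluster 6 (10.0% to 33.7%) and 11.3% of 2135 cells in the others. The thinning left out 10 and 26 WT-labelled cells and 43 and 39 DKO-labelled cells of clusters 3 and 6. Without thinning, the WT-labelled shares were 81.4% and 77.3% and the DKO-labelled shares 28.8% and 27.0%. In WT-labelled T cells the thinned share was 21.2%, at a median of 2685 UMIs per cell before thinning, and in DKO-labelled T cells 4.70%, at 1887. In each library the share in clusters 3 and 6 was above that in T cells, and the DKO-labelled shares were about those of WT-labelled T cells.

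**Figure D2:**
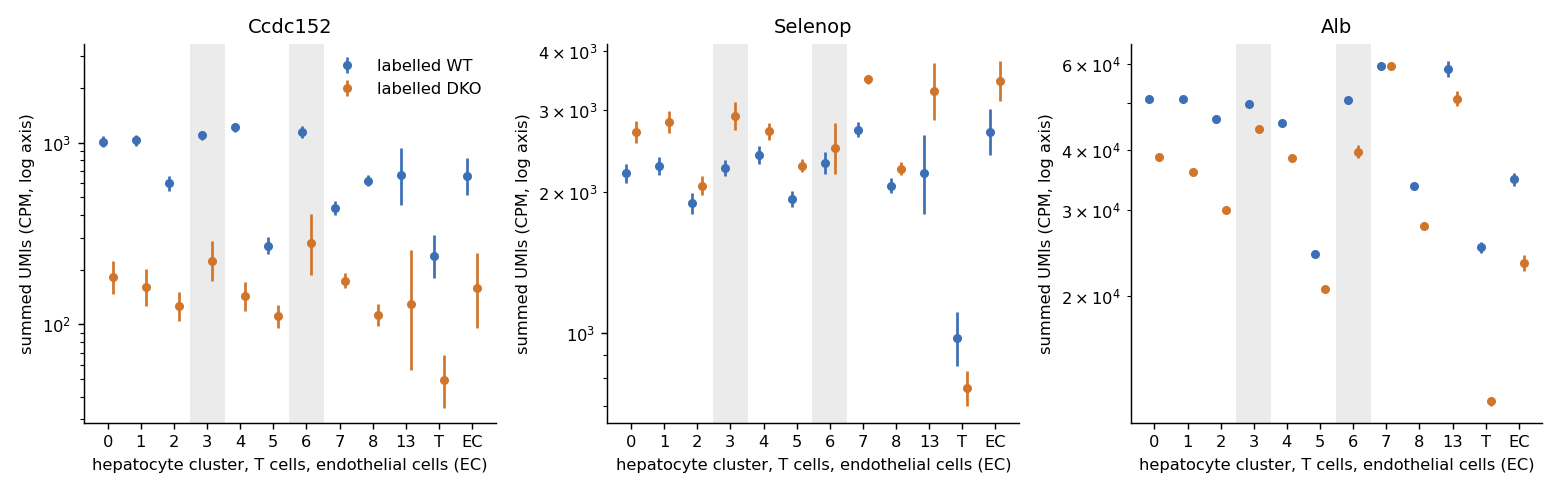
Summed UMIs of Ccdc152, Selenop and Alb in CPM (log axes) by hepatocyte cluster, T cells (T) and endothelial cells (EC), with exact Poisson 95% intervals of counting error; clusters 3 and 6 are shaded. Every hepatocyte cluster has less Ccdc152 with the label DKO (224 against 1102 CPM in cluster 3), while Selenop is not lower.

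Which WT-labelled cells the clusters are compared with sets much of what stands out. Of 6378 genes with at least 100 UMIs over both sides, 150 were at least 1.5-fold higher in cluster 3 than in the 8 other hepatocyte clusters (2.35%) and 316 at least 1.5-fold lower (4.95%). For cluster 6 the counts among 6200 genes were 268 higher (4.32%) and 982 lower (15.8%), and the median log2 ratio of all genes was −0.12. Scaling by the median ratio gave 485 and 695 for cluster 6. The clusters were formed on these same genes, so the differences describe the clusters and are no test. The comparison was repeated against clusters 0, 1, 2 and 4 only, a choice made after the values were seen. This leaves out the deep clusters 5, 7 and 8 and also the shallow cluster 13, all with median mitochondrial shares above 13%. With the label DKO, cluster 4 itself had a median of 3817 UMIs and a mitochondrial share of 13.5%. That left 158 higher and 84 lower genes for cluster 3, and 46 higher and 191 lower for cluster 6.

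Mitochondrially encoded RNA, which codes for subunits of the respiratory chain, was lower in the summed UMIs of both clusters than in those of the 8 others. In cluster 3 this turned round under the narrower comparison, and it was not seen in the median cell, whose mitochondrial share was 3.34% in cluster 3 and 3.03% in the 8 others. In cluster 3, 12 of 13 mitochondrially encoded genes were lower, 9 of them past 1.5-fold, with a median log2 ratio of −0.97 against 0.00 for all genes. mt-Co1 was at 9907 CPM in cluster 3 and 22794 CPM in the others, a ratio of 0.435 (0.426 to 0.443). mt-Nd1 had the ratio 0.349 (0.333 to 0.365). Against clusters 0, 1, 2 and 4, all 13 were higher in cluster 3, with a median of 0.32. In cluster 6 all 13 were lower than in the 8 others (median −1.57), and 12 of 13 were lower against clusters 0, 1, 2 and 4 (median −0.19). With every cell weighted alike, 9 of 13 were lower in cluster 3 (median −0.43) and all 13 in cluster 6 (median −1.08). By median share, cluster 3 lay between clusters 1 (3.09%) and 4 (3.67%).

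Transcripts linked to ribosomal RNA were higher in both clusters than in the 8 others and close to clusters 0, 1, 2 and 4. Gm42418, a transcript that overlaps the ribosomal RNA repeat (chromosome 17, 39846958 to 39848788, plus strand), was at 35312 CPM in cluster 3 and 39590 CPM in cluster 6, against 20150 CPM in the 8 others. The ratios were 1.75 (1.73 to 1.77) and 1.96 (1.94 to 1.99). AY036118, on the minus strand inside it (39847113 to 39848035), had the ratios 1.73 and 2.12. Cmss1, whose product is a ribosome-related protein and which is on the list of these transcripts, had 1.77 and 1.97. Camk1d, a kinase gene that is not on the list, had 1.76 and 1.93. Against clusters 0, 1, 2 and 4 the ratio of Gm42418 was 0.99 in cluster 3 and 1.11 in cluster 6, and that of Camk1d was 0.997 and 1.10. Lars2, the mitochondrial leucyl-tRNA synthetase and on the list, was also among the 10 highest in cluster 3, with a ratio of 1.72. So were the lesser transcripts Egfros and Gm15564, not on the list, with 2.38 and 1.93. In cluster 6, Filip1l, which shares its locus with Cmss1 on the other strand, had the ratio 2.31 and B430119L08Rik 1.98. Neither is on the list.

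Hepatocyte genes were moderately higher in both clusters than in the 8 others. Of the 28 hepatocyte identity genes, 23 were higher in cluster 3 (median log2 ratio 0.17), where 50% of all genes were higher. In cluster 6, 23 of 28 were higher (median 0.24), where 40.1% of all genes were higher. None was past 1.5-fold. Apob, the structural protein of very low-density lipoprotein, had 4090 against 3156 CPM in cluster 3, a ratio of 1.30 (1.25 to 1.34). Ttr, the thyroxine carrier, had 14913 against 10693 CPM in cluster 6, a ratio of 1.39 (1.36 to 1.43). Against clusters 0, 1, 2 and 4, 11 of 28 hepatocyte identity genes were higher in cluster 3 (median −0.03) and 23 of 28 in cluster 6 (median 0.07).

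Single enzymes of drug metabolism were higher in cluster 3, while the list of conjugation genes was split. Of 35 phase II conjugation genes measured, 19 were higher and 16 lower than in the 8 others (median 0.02). Ugt1a1, the enzyme that conjugates bilirubin, was at 171 CPM (147 to 197) in cluster 3 and 80.2 CPM (73.7 to 87.0) in the 8 others. Its ratio of 2.13 (1.80 to 2.51) was first in the ranking by the interval bound nearest 1, and its level was the highest of the 10 hepatocyte clusters. The ratio was 1.41 (1.18 to 1.68) against clusters 0, 1, 2 and 4. Sult2a2, a bile acid sulfotransferase with higher expression in female liver, had 188 against 106 CPM, a ratio of 1.77 (1.51 to 2.07). Of 31 genes of the cytochrome P450 families 1 to 3, 26 were higher in cluster 3 than in the 8 others (median 0.20) and 22 in cluster 6 (median 0.18). Over all genes, 50% were higher in cluster 3 and 40.1% in cluster 6. Among the cytochrome P450 genes that were lower was Cyp1a2, a pericentral enzyme, at 238 against 431 CPM in cluster 3 (ratio 0.55).

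The zonation lists did not place either cluster at one end of the lobule. Of 20 pericentral genes measured, 9 were higher and 11 lower in cluster 3 (median −0.15), and 10 and 10 in cluster 6 (median 0.01). Glul, glutamine synthetase of the cells next to the central vein, was at 415 CPM in cluster 3 and 489 CPM in cluster 6 against 717 CPM in the 8 others. It was highest in cluster 5, at 1996 CPM. Of 22 periportal genes, 12 were higher in cluster 3 (median 0.05) and 8 in cluster 6 (median −0.07). Sds, serine dehydratase, had 269 UMIs in cluster 3, a level of 243 CPM, and the ratio had the interval 1.30 to 1.71. The low end of the ranking also held weakly detected genes, such as Sertad2 with 9 UMIs in cluster 3 and Peli1, a ubiquitin ligase, with 5 in cluster 6.

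RNA of pancreatic digestive enzymes, which hepatocytes do not make, was counted in cluster 6. Ctrb1, chymotrypsinogen, had 94 UMIs there, or 163 CPM against 14.96 CPM in the 8 others, a ratio of 10.9 (8.14 to 14.5). The level was the highest of the 10 hepatocyte clusters, with 36.1 CPM in cluster 3 and 53.7 CPM in cluster 2. Prss2, a trypsinogen, had the ratio 7.25 (4.90 to 10.6), Clps, colipase, 3.93 and 2210010C04Rik, a trypsinogen-like gene, 13.5. The level of Prss2 was highest in cluster 13 (44 WT-labelled cells), at 80.5 CPM against 77.8 CPM in cluster 6. The 18 acinar markers summed to 918 CPM in WT-labelled cluster 6, 272 CPM in WT-labelled cluster 3 and 145 CPM in the 8 others, and 17 of 18 had a UMI in each. In cluster 6 their 531 UMIs were spread over 367 of 410 cells, no cell had more than 11, and the 5 highest cells held 7.91% of them. The sum was 368 CPM in the DKO-labelled cells of cluster 6 and 63.1 CPM in those of cluster 3. The sums differ in make-up. The elastase gene Cela1 took 449 of the 1025 acinar UMIs in the WT-labelled others, but 46 of 531 in WT-labelled cluster 6. In DKO-labelled cluster 3 it took 10 of 18. The source of the acinar UMIs was not tested. The acinar genes remained first against clusters 0, 1, 2 and 4, where Ctrb1 had the ratio 6.17 (4.56 to 8.36).

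Against the 8 other clusters, plasma proteins other than albumin followed the hepatocyte identity genes. Of 33 coagulation and complement genes, 28 were higher in cluster 3 (median 0.15) and 26 in cluster 6 (median 0.18). For this and the next lists, 50% of all genes were higher in cluster 3 and 40.1% in cluster 6. The medians over all genes were 0.00 and −0.12. Kng1, the kininogen of the contact system, was at 1750 CPM in cluster 3 and 1887 CPM in cluster 6 against 1332 CPM in the 8 others. Its ratios were 1.31 (1.25 to 1.38) and 1.42 (1.33 to 1.51). Of 17 genes of immediate early response and dissociation stress, 12 were lower in cluster 3 (median −0.12) and 15 in cluster 6 (median −0.38). Egr1, an immediate early transcription factor, was at 192 CPM in cluster 6 and 271 CPM in the 8 others, a ratio of 0.707 (0.579 to 0.857). Of 16 sex-biased liver genes, 13 were higher in each cluster (medians 0.32 and 0.29), among them Cyp2c40 with a ratio of 1.61 in cluster 3. The list holds genes biased to females and genes biased to males, so its direction does not describe a sex difference.

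Against clusters 0, 1, 2 and 4 together, nuclear RNA was higher in cluster 3, though not than in cluster 4. Malat1 was at 6028 CPM in cluster 3 and 3856 CPM in those clusters, a ratio of 1.56 (1.52 to 1.61), while in cluster 6 the ratio was 0.820 (0.781 to 0.862). Among the 10 hepatocyte clusters Malat1 was highest in cluster 4, at 8578 CPM, and lowest in cluster 2, at 437 CPM, with cluster 3 ranked 3rd and cluster 6 ranked 6th. Neat1 was likewise highest in cluster 4, at 682 CPM against 547 CPM in cluster 3. Efna5, an ephrin ligand, and Plce1, a phospholipase C, had the highest ranks in cluster 3, with ratios of 2.61 and 2.20. Of 23 nuclear-retained RNA and long genes, 21 were higher in cluster 3 (median 0.50), and 7 in cluster 6 (median −0.08). The short messengers were on the other side in cluster 3: 47 of 48 cytosolic ribosomal protein genes were lower (median −0.16), as were 39 of 40 nuclear-encoded genes of oxidative phosphorylation (median −0.15). Against the 8 other clusters, 35 of those 40 were higher (median 0.16), so that their direction also depended on the cells compared.

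**Figure D3:**
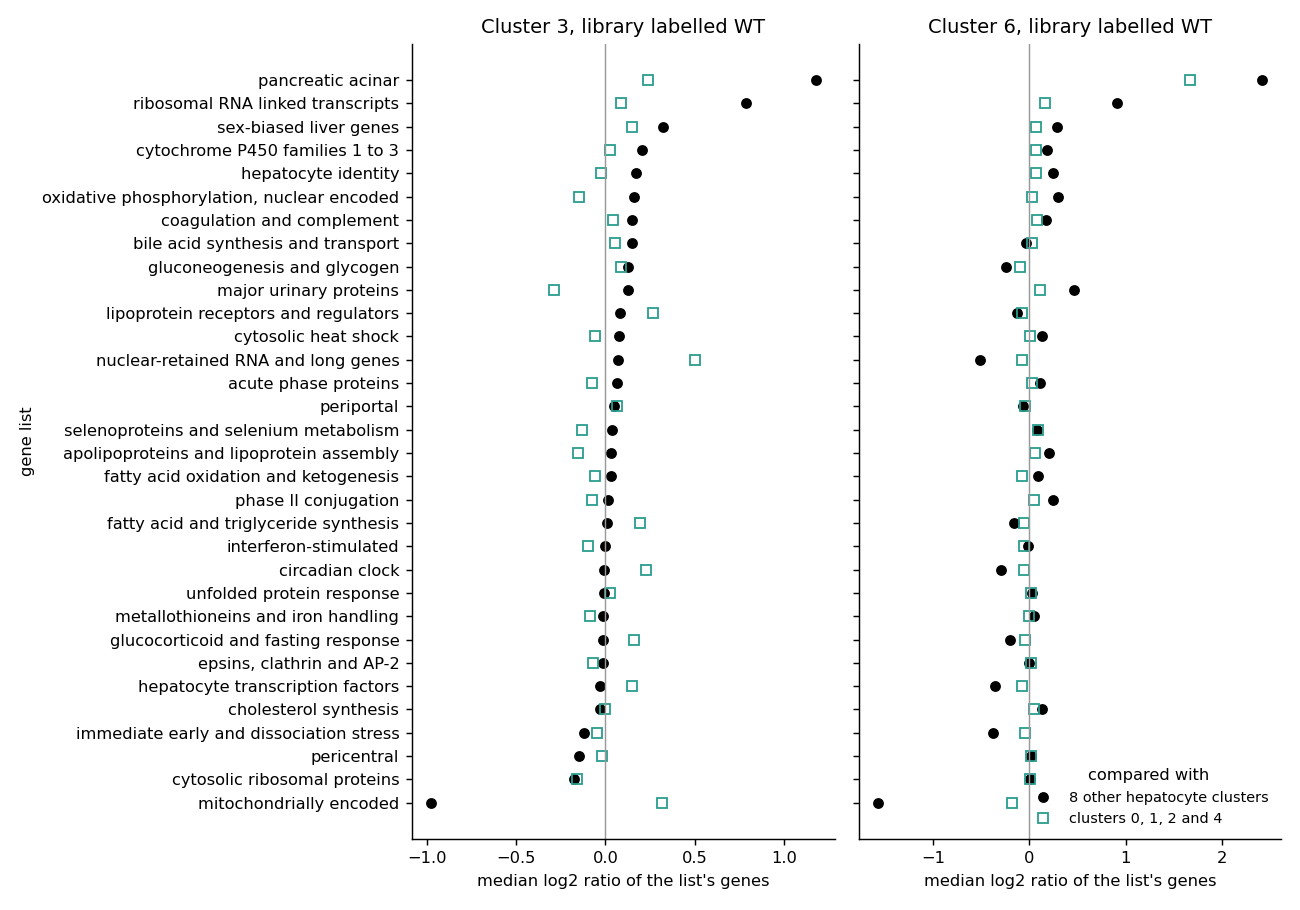
Median log2 ratio of each gene list in WT-labelled cells of cluster 3 (left) and cluster 6 (right), against the 8 other hepatocyte clusters (filled circles) and against clusters 0, 1, 2 and 4 only (open squares). The mitochondrially encoded list in cluster 3 moves from −0.97 to 0.32 with the cells compared, and the acinar list stays the highest in cluster 6.

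Against cluster 3, cluster 6 had less nuclear-retained RNA, lower levels of most long genes and higher levels of most short ones. Within the library labelled WT, 25 of 2353 genes were at least 1.5-fold higher in cluster 6 (1.06%) and 207 at least 1.5-fold lower (8.8%). Malat1, a long non-coding RNA kept in the nucleus, was at 3163 CPM in cluster 6 and 6028 CPM in cluster 3, a ratio of 0.525 (0.498 to 0.553). Neat1, the RNA scaffold of nuclear paraspeckles, had the ratio 0.53 (0.44 to 0.63). Malat1 and Neat1 are not long genes by span, with 6983 and 20771 bases. Of 21 genes in the list of nuclear-retained RNA and long genes, 19 were lower in cluster 6, 9 of them past 1.5-fold, with a median of −0.56 against −0.02 for all genes. Fchsd2, Zbtb16 and Foxo3, which encode an endocytic adaptor and 2 transcription factors, had ratios of 0.34, 0.44 and 0.44.

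The ratios also had an order by gene span, the length from start to end of a gene with its introns. Of 340 genes under 5 kb, 286 were higher in cluster 6 than in cluster 3, with a median log2 ratio of 0.19. Of 666 genes from 5 to 20 kb, 458 were higher (median 0.10). Of 403 genes over 100 kb, 36 were higher (median −0.45) and 125 were past 1.5-fold lower. Genes over 100 kb took 7.01% of the UMIs in cluster 6 and 8.87% in cluster 3. Against the 8 other hepatocyte clusters, 143 of 990 such genes were higher in cluster 6 (median −0.38) and 611 of 1017 in cluster 3 (median 0.06). Against clusters 0, 1, 2 and 4 together, 229 of 686 were higher in cluster 6 (median −0.12, and −0.04 over all genes) and 671 of 773 in cluster 3 (median 0.32). Taken singly, the order depended on the cluster compared. Genes over 100 kb were higher in cluster 6 than in clusters 0, 2 and 13 (medians 0.21, 0.60 and 0.53) and lower than in clusters 1, 4, 5, 7 and 8 (−0.13 to −0.92). In cluster 3 they were lower than in clusters 4 and 8 (−0.33 and −0.46), and the medians against the other 6 lay between 0.02 and 1.29. These comparisons with single clusters were chosen after the values were seen. The genes of a bin share the same cells and are not replicates, and the part of depth in this order was not tested; the median cell had 1318 UMIs in cluster 6 and 1618 in cluster 3.

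**Figure D4:**
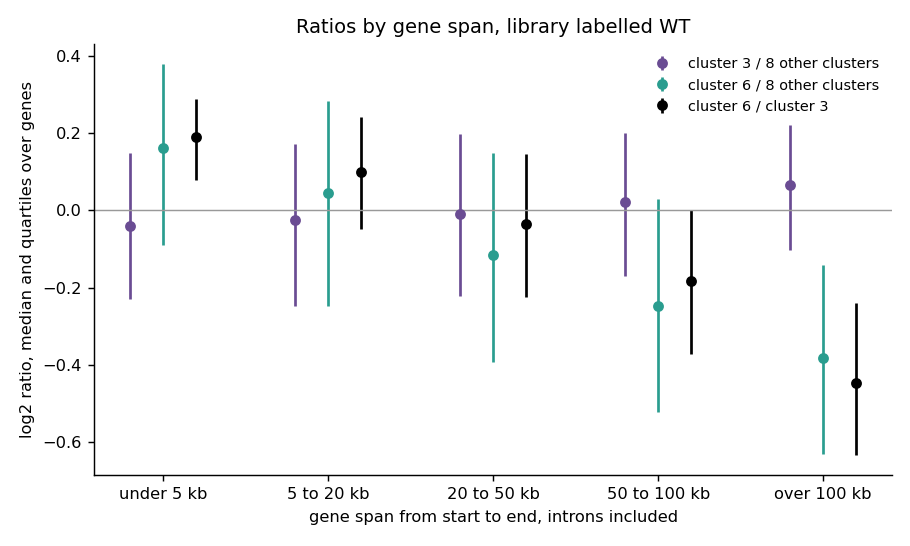
Log2 ratios in the library labelled WT by gene span, with points at the median over genes and lines from the first to the third quartile. The ratio of cluster 6 to cluster 3 goes from 0.19 for genes under 5 kb to −0.45 for genes over 100 kb.

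Genes of short, abundant messengers were on the other side. Of 48 cytosolic ribosomal protein genes, 46 were higher in cluster 6 than in cluster 3 (median 0.16), where 47.9% of all genes were higher. Of 39 nuclear-encoded genes of oxidative phosphorylation, 36 were higher (median 0.16), while all 13 mitochondrially encoded genes were lower (median −0.56). Cox5a, a subunit of cytochrome c oxidase, had 901 against 714 CPM, a ratio of 1.26 (1.13 to 1.41). mt-Nd4l, a subunit of complex I, had 694 against 1340 CPM, a ratio of 0.518 (0.462 to 0.578). Of 13 genes of selenoproteins and selenium metabolism, 12 were higher (median 0.19), among them Gpx4, a glutathione peroxidase that acts on lipid peroxides, with a ratio of 1.26 (1.03 to 1.54). All 5 measured major urinary proteins were higher, led by Mup11 with a ratio of 1.62 (1.35 to 1.94). Of 15 hepatocyte transcription factors, 12 were lower (median −0.31), among them Nr1h4, the bile acid receptor, at 169 against 289 CPM. Ier3ip1, Psenen and Snrpb, with 54 to 93 UMIs in cluster 6, had ratios of 2.15, 1.78 and 1.88.

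Among WT-labelled cells both clusters had the same nearest neighbour. Over 719 genes with at least 200 CPM in WT-labelled hepatocytes, cluster 3 was nearest to cluster 1, with a median absolute log2 ratio of 0.12 and 6 genes past 1.5-fold. Cluster 6 was likewise nearest to cluster 1 (0.09, 3 genes) and then to cluster 0 (0.10, 7 genes). Clusters 3 and 6 differed from each other by 0.17, with 34 genes past 1.5-fold. Among DKO-labelled cells, cluster 3 was nearest to cluster 4 (0.17, 16 of 683 genes) and cluster 6 to cluster 0 (0.23, 93 genes). Clusters 3 and 6 labelled DKO differed by 0.34, with 185 genes past 1.5-fold. These values rest on 285372 and 103360 UMIs with the label DKO, against 1106945 and 578224 with the label WT. Fewer UMIs give larger counting error, and its part in the distances and in the order of neighbours was not tested.

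Between libraries, cluster 3 had more genes lower than higher with the label DKO. Of 2028 genes ranked, 70 were at least 1.5-fold higher (3.45%) and 266 at least 1.5-fold lower (13.1%), with a median log2 ratio of −0.14. Scaled by the total without mitochondrial and ribosomal RNA linked transcripts, the median was 0.01 and the counts were 138 and 164. Cluster 6 had 32 of 953 genes higher (3.36%) and 184 lower (19.3%), with a median of −0.22. With that scaling the median was −0.04 and the counts were 76 and 101. Of the 953 genes measured in both clusters, 11 were at least 1.5-fold higher and 41 at least 1.5-fold lower in both. Among these same 953 genes, 19 were higher and 141 lower in cluster 3, and 32 higher and 184 lower in cluster 6. Whether the overlap exceeds that of unrelated lists was not tested.

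The highest ratios belonged to mitochondrial and ribosomal RNA linked transcripts. In cluster 3, mt-Co2, cytochrome c oxidase subunit 2, was at 9206 CPM with the label DKO and 2722 CPM with the label WT, a ratio of 3.38 (3.21 to 3.56). Of the 13 mitochondrially encoded genes, 12 were higher in cluster 3, 10 past 1.5-fold, with a median of 1.25. In cluster 6, 9 of 12 were higher, 4 past 1.5-fold, with a median of 0.22, and the ratio of mt-Co2 was 2.23 (1.99 to 2.50). The median mitochondrial share of the cells moved in the same direction, from 3.34% to 7.64% in cluster 3 and from 2.34% to 2.83% in cluster 6. The ratio of mt-Co2 was 1.76 in the other hepatocyte clusters together. The part of the mitochondrial share of the cells in these ratios was not tested.

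Gm42418 and AY036118, which overlap on opposite strands, went opposite ways. In cluster 6, Gm42418 was at 127738 CPM with the label DKO and 39590 CPM with the label WT, a ratio of 3.23 (3.16 to 3.30), while AY036118 had the ratio 0.827 (0.756 to 0.902). In cluster 3 the ratios were 1.99 (1.95 to 2.02) and 0.346 (0.317 to 0.378). Cmss1 had 3.75 in cluster 3 and 6.81 in cluster 6, and Cdk8, a kinase of the Mediator complex, 4.56 and 6.60. Cmss1 and Cdk8 were also high in the other hepatocyte clusters, with ratios of 3.73 and 3.97. Lars2 had 2.48 and 4.11, and Camk1d, not on the list of ribosomal RNA linked transcripts, had 1.67 and 3.38.

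A few genes that overlap an abundant gene on the other strand were lower with the label DKO. B430119L08Rik, annotated as antisense (chromosome 12, 103895897 to 103898784, plus strand), overlaps exons of Serpina1c, an alpha-1-antitrypsin gene. It had 7 UMIs in DKO-labelled cluster 3, or 24.5 CPM against 215 CPM, a ratio of 0.114 (0.045 to 0.239). In cluster 6 the ratio was 0.253 (0.0999 to 0.533). Serpina1c itself had the ratios 0.879 and 0.855. B430119L08Rik, Ccdc152 and AY036118 were the 3 lowest genes of cluster 3 by rank. A search for ranked genes whose exons overlap a gene on the other strand with at least 1000 CPM and 5 times the level found only B430119L08Rik and AY036118 in cluster 3, and those and mt-Nd6 in cluster 6. All were lower with the label DKO, where 35.7% and 29% of all genes were higher in clusters 3 and 6. The overlap of mt-Nd6 is 14 bases, and its partner mt-Nd5 was lower too (ratios 0.497 and 0.612). These few genes were chosen after their values were seen, and the labels do not say whether the counting used strand.

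**Figure D5:**
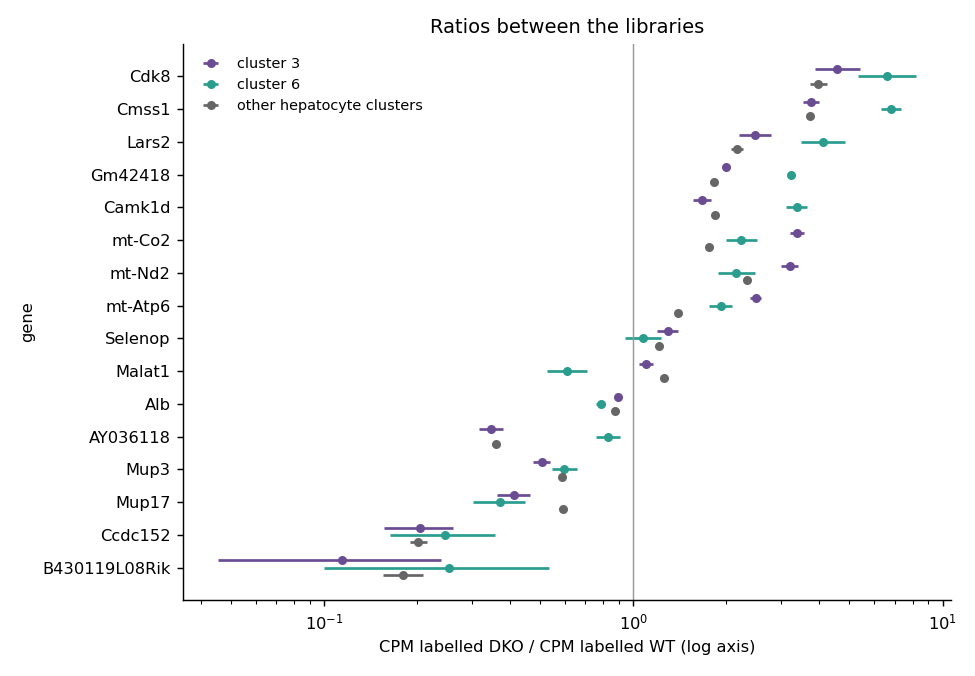
Ratio of CPM with the label DKO to CPM with the label WT (log axis) for 16 genes in cluster 3, cluster 6 and the other hepatocyte clusters, with exact binomial 95% intervals of counting error. Ccdc152 and B430119L08Rik are low in all 3 sets of cells (0.203, 0.246 and 0.202 for Ccdc152), and Malat1 is higher in cluster 3 and lower in cluster 6.

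Several groups of liver genes were lower with the label DKO in both clusters, and the direction was kept under each other scaling tried. Of the major urinary proteins, pheromone carriers secreted into plasma, 4 of 5 were lower in cluster 3 (median −0.27) and 3 of 3 in cluster 6 (median −0.92), where 35.7% and 29% of all genes were higher. Mup17 was at 981 against 2393 CPM in cluster 3, a ratio of 0.410 (0.361 to 0.464), and at 1103 against 2980 CPM in cluster 6, a ratio of 0.370 (0.303 to 0.448). Mup3 had the ratios 0.506 and 0.599. Of 16 pericentral genes, 13 were lower in cluster 3 (median −0.39) and all 16 in cluster 6 (median −0.49). Cyp7a1, which starts the main route from cholesterol to bile acids, had the ratios 0.46 (0.30 to 0.67) and 0.33 (0.12 to 0.74). Slc1a2, a pericentral glutamate transporter, had 0.38 in cluster 3, and Oat, ornithine aminotransferase, 0.56 in cluster 6. Cyp1a2 was an exception in cluster 3, at 424 against 238 CPM (ratio 1.78). Of the phase II conjugation genes, 17 of 20 were lower in cluster 3 (median −0.48) and 15 of 17 in cluster 6 (median −0.40). Ugt2b1, a glucuronosyltransferase, had 4 UMIs in DKO-labelled cluster 6 and the ratio 0.173 (0.047 to 0.455).

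Nuclear-encoded oxidative phosphorylation went against its mitochondrially encoded partners in cluster 3. Of 39 such genes, 34 were lower with the label DKO, 11 past 1.5-fold, with a median of −0.39. Cox5a had 350 against 714 CPM, a ratio of 0.49 (0.39 to 0.61). In cluster 6, 29 of 34 were lower, 4 past 1.5-fold (median −0.26). Over all genes, 35.7% and 29% were higher in clusters 3 and 6, and 13.1% and 19.3% at least 1.5-fold lower. Scaled without mitochondrial and ribosomal RNA linked transcripts, 27 of 39 were lower in cluster 3 (median −0.24) and 21 of 34 in cluster 6 (median −0.08).

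The lowest ranks in each cluster also held single genes of other functions. In cluster 3, Sap18, a histone deacetylase complex subunit, had the ratio 0.192, Park7, an oxidative stress protein, 0.385, and the interferon-induced genes Ifitm2 and Ifi27 0.374 and 0.335. In cluster 6, Cyp3a44 had 0.281 and Cpb2, a plasma carboxypeptidase, 0.413. AW112010, Immp2l, Zfand6 and Prdx1, a peroxiredoxin, had 0.432, 0.449, 0.309 and 0.534. Cpb2, AW112010 and Prdx1 were low in cluster 3 too, with 0.527, 0.550 and 0.533. Gphn, gephyrin, was higher in cluster 6, with a ratio of 2.65 (2.21 to 3.16), and in cluster 3, with 1.82. Of 12 bile acid synthesis and transport genes in cluster 6, all were lower (median −0.51), while in cluster 3, 11 of 17 were (median −0.06). Of 21 cytochrome P450 genes in cluster 6, 18 were lower, 10 past 1.5-fold (median −0.58). Over all genes, 29% were higher in cluster 6 and 35.7% in cluster 3, and 19.3% were at least 1.5-fold lower in cluster 6.

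Lipoprotein genes, which bear on the study's title, showed no common shift. Of 18 apolipoprotein and lipoprotein assembly genes, 13 were lower in cluster 3 with the label DKO (median −0.21), and 11 of 14 in cluster 6 (median −0.14). Over all genes, 35.7% and 29% were higher, with medians of −0.14 and −0.22. The direction of the list in cluster 6 turned when the total left out mitochondrial and ribosomal RNA linked transcripts, where 8 of 14 were higher (median 0.05). Apoa4 was higher in cluster 3, at 217 against 91.2 CPM, a ratio of 2.38 (1.71 to 3.30). Of the hepatocyte identity genes, 23 of 28 were lower in each cluster (medians −0.18 and −0.25), and 17 of 28 in each with that scaling.

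Genes of the endocytic machinery in which epsins work were counted too thinly for most to be ranked between libraries. Of the list of epsins, clathrin and AP-2, 3 genes reached 100 UMIs in cluster 3 and all 3 were lower with the label DKO. Most genes were lower there, with 35.7% of all genes higher, so 3 genes show no shift of the list. Clta, the clathrin light chain A, was at 98.1 against 171 CPM, a ratio of 0.575 (0.372 to 0.858). Picalm, a clathrin assembly protein, was at 87.6 against 137 CPM, a ratio of 0.638 (0.4003 to 0.978). In cluster 6, 2 genes were measured and both were lower (median −0.25), close to the median of −0.22 over all genes. Of the sex-biased liver genes, a list with genes of either bias, 12 of 14 were lower in cluster 3 (median −0.33) and 7 of 8 in cluster 6 (median −0.34). Over all genes, 35.7% and 29% were higher. Orm1, the acute phase protein orosomucoid, had the ratios 0.624 (0.548 to 0.708) and 0.666 (0.547 to 0.804).

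Among DKO-labelled cells, clusters 3 and 6 stood out from the other hepatocyte clusters in more genes, with less depth behind them. Cluster 3 had 463 of 6676 genes at least 1.5-fold higher (6.94%) and 1114 lower (16.7%). Cluster 6 had 882 of 6634 higher (13.3%) and 2474 lower (37.3%). Cluster 6 holds 103360 UMIs against 8772710 in the others, so genes near the minimum of 100 UMIs rest on very few counts there. Genes higher by any amount made up 42.5% in cluster 3 and 37.6% in cluster 6. Of the 13 mitochondrially encoded genes, all were lower in cluster 6 (median −1.60) and 11 in cluster 3 (median −0.31). Of the 25 nuclear-retained RNA and long genes, 23 were lower in cluster 6 (median −1.27) and 5 in cluster 3 (median 0.16). The 48 cytosolic ribosomal protein genes were all lower in cluster 3 (median −0.36). Haemoglobin RNA, which red cells carry, was higher in cluster 6: Hbb-bs was at 445 CPM against 65.8 CPM, and 33.7% of the 89 cells had a UMI of an erythroid marker against 14.8% of the others. The 5 highest cells held 50.7% of the 73 erythroid UMIs. Clusters 14, 16 and 18, which the authors also call hepatocytes and which were left out (194 cells), hold more: with them among the others, the log2 ratio of Hbb-bs was −3.17.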

How the data were processed

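The authors deposited UMI counts per gene and cell, with a table of clusters, cell types and library labels per cell; Cell Ranger 7.1.0 and the build mm10 are named in the submitters' processing notes. The sources used here do not give cell filters or the strand of counting. In the deposited counts every cell had at least 500 UMIs, 202 to 2499 detected genes and a mitochondrial share under 20%. No doublet caller was run. Of the authors' metadata, 26 columns were not used.

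UMI counts were summed per cluster and library and divided by the total of all genes to give CPM. The totals were 1106945 UMIs (cluster 3, label WT), 285372 (cluster 3, label DKO), 578224 (cluster 6, label WT) and 103360 (cluster 6, label DKO), and 7084497 and 8772710 in the other hepatocyte clusters. With 1 library per genotype no test was run. Genes with at least 100 UMIs over both sides were ranked by the interval bound nearest 1. A difference counts as past the threshold from 1.5-fold.

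Named genes are the 10 highest and 10 lowest of each main comparison (5 and 5 for cluster 6 against 3), up to 3 members of each list described, and the genes that mark or overlap them. Some genes that this rule names are not reported here. The clusters and lists were chosen with earlier results of these data known. Gene spans and positions are from the GENCODE M21 annotation of GRCm38. The span bins, the 200 CPM minimum for neighbours, the antisense search and the comparisons with clusters 0, 1, 2 and 4 and with single clusters were chosen after the data were seen. Clusters 14, 16 and 18, called hepatocytes by the authors, were left out (194 cells). Python 3.11.15, numpy 2.4.6, pandas 2.3.3, scipy 1.17.1 and matplotlib 3.10.9 were used. The calculation was tested on simulated data.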

Additional observations from a re-analysis of the deposited data

Results flagged for a closer look

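For 11 of the 953 genes measured in both clusters, the ratio of label DKO to label WT lay on opposite sides of 1. Neither interval of counting error held 1, but several came close, such as Rida in cluster 3 (0.720 to 0.999) and Cp in cluster 6 (0.590 to 0.989). The medians over all genes were −0.14 and −0.22 in clusters 3 and 6. With the total without mitochondrial and ribosomal RNA linked transcripts they were 0.01 and −0.04, so such near bounds depend on the scaling. The difference between the clusters was not tested, since each genotype has 1 library. Hint2, a mitochondrial nucleotide hydrolase, had the ratio 0.732 in cluster 3 and 1.65 in cluster 6, and Rida, a deaminase, 0.850 and 1.39. The other 9 were higher with the label DKO in cluster 3 and lower in cluster 6. Malat1 had 1.10 and 0.612. mt-Nd5 and mt-Nd4l, both subunits of complex I, had 1.23 and 0.612, and 1.33 and 0.572. Cp, the ferroxidase ceruloplasmin, had 1.25 and 0.769. Cyp4a10, a fatty acid hydroxylase, had 1.43 and 0.589, and Por, the reductase that serves the cytochrome P450 enzymes, 1.19 and 0.638. St3gal5, a ganglioside synthase, had 1.40 and 0.662. Rps15, a ribosomal protein, had 1.31 and 0.709, and Lrg1, an acute phase protein, 1.28 and 0.563.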

How the results depend on the processing

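No paired analysis was possible because each genotype has 1 library. Counts past 1.5-fold depend on the minimum of UMIs (higher then lower). At 50 UMIs they were 356 and 620 for cluster 3 and 454 and 1513 for cluster 6 against the others with the label WT, and 806 and 1743 for cluster 3 with the label DKO. Between libraries they were 189 and 539 in cluster 3 and 117 and 412 in cluster 6, and for cluster 6 against 3 they were 111 and 469. At 200 UMIs, in the same order and with cluster 6 labelled DKO after cluster 3, they were 57 and 120, 125 and 543, 197 and 574, 513 and 1607, 24 and 135, 15 and 81, and 1 and 68. Between libraries, scaling without mitochondrial and ribosomal RNA linked transcripts gave 138 and 164 in cluster 3 and 76 and 101 in cluster 6, and median ratio scaling gave 133 and 167, and 85 and 87. Median ratio scaling also gave 485 higher genes for cluster 6 labelled WT. With every cell weighted alike, 1157 genes were higher in cluster 3 labelled DKO than in the others, and 116 were higher with the label DKO in cluster 3.

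Against clusters 0, 1, 2 and 4 only, 84 genes were lower in cluster 3 labelled WT, 46 higher and 191 lower in cluster 6 labelled WT, 421 lower in cluster 3 labelled DKO, and 248 higher and 812 lower in cluster 6 labelled DKO. That comparison was chosen after seeing the data, and it reversed these log2 ratios of cluster 3 labelled WT: Gm42418 (−0.018), Camk1d (−0.0037), AY036118 (−0.12), mt-Nd1 (0.24), mt-Nd3 (0.23), mt-Co2 (0.30), mt-Atp6 (0.31), mt-Co1 (0.30), mt-Co3 (0.32), mt-Cytb (0.37), mt-Nd4 (0.44) and the mitochondrially encoded list (0.32). In cluster 3 labelled DKO it reversed Gm42418 (−0.25), Cmss1 (−0.46), Cdk8 (−0.13), AY036118 (−0.68) and the list of ribosomal RNA linked transcripts (−0.19). AY036118 was at −0.0203 there with every cell weighted alike. With all other clusters called hepatocytes, Hbb-bs was at −3.17, Hba-a1 at −3.88 and the haemoglobin list at −4.38 in cluster 6 labelled DKO. The causes were not tested, and genes with 0 UMIs on one side have no log2 ratio and were not followed. Thinned to 500 UMIs, Ccdc152 was detected in 39.2% (label WT) and 10.3% (label DKO) of cells in cluster 3 and in 42.9% (label WT) in cluster 6. Without thinning, chosen after seeing the data, the WT-labelled shares were 81.4% and 77.3%. Depth limits the DKO-labelled cells of cluster 6 most, with 103360 UMIs in 89 cells. The intervals do not cover differences between mice.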

Other observations

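Detection of a pericentral and a periportal enzyme in the same cells was tallied in clusters 3 and 6 after thinning to 1000 UMIs. Cyp2e1, a pericentral cytochrome P450, had a UMI in 94.6% of 653 WT-labelled cells of cluster 3 and 95.1% of 384 in cluster 6, against 88.9% of 2677 in the other hepatocyte clusters. Cyp2f2, a periportal one, had a UMI in 32.5%, 34.9% and 30.4%. Both were counted in 30.8% of cells in cluster 3, 33.3% in cluster 6 and 25.4% in the others. Cyp2f2 without Cyp2e1 was counted in 1.68%, 1.56% and 5.04%. WT-labelled T cells, which should lack both, gave 70.6% for Cyp2e1 and 12.9% for Cyp2f2 at a median of 2685 UMIs per cell before thinning. The source of these UMIs in T cells was not tested. With the label DKO, both were counted in 14.6% of 103 cells in cluster 3 and 11 of 50 cells in cluster 6, against 9.09% of 2135 cells in the others.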
